A study of Homo sapiens with 12 samples.

Results

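Genes that are recurrently altered in pancreatic ductal adenocarcinoma were looked up among the RNA sites that an antibody to 1-methylguanosine (m1G) bound in PANC-1, an established cell line of such a tumour. The 8 members, CDKN2A, SMAD4, RNF43, GNAS, TGFBR2, GATA6, MYC and BRCA2, are among 20056 protein-coding genes of the RefSeq table. They were chosen as known drivers and not by their values in these lists, though with earlier results of these data known. A peak was counted for a gene when its whole range lay inside the gene's GRCh38 span. Only GNAS and TGFBR2 held peaks. CDKN2A, SMAD4, RNF43, GATA6, MYC and BRCA2 had none in either list as used here.

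Per the labels, PANC-1 cells were transfected with siRNA, either as control or against TRMT5, a tRNA methyltransferase that makes m1G. TRMT5 depletion lasted 4 days, also per the labels. Polyadenylated RNA was fragmented and kept as input or precipitated with the anti-m1G antibody (IP). The 12 libraries comprised control cells and TRMT5 knockdown (KD) cells, with 3 input and 3 m1G IP libraries of each, or 4 groups in all. All of their titles name experiment 2. The labels do not say whether the replicates came from separate cultures. They call the controls "WT control" and do not name the control siRNA.

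Only 2 series-wide peak lists were used, and no column in them is named for a library, for knockdown or for control. Which libraries each list was made from is not stated. The list called MetDiff gives a ratio, a strand, exon blocks and a false discovery rate (FDR). Its columns have no header, and the place of the ratio among them was the reason to take it for IP over input. If it is another contrast, the ratios below have another meaning. The MACS2 list gives summits of 1 base with −log10 of a q-value. All these scores are the authors', and they rank peaks within their own list only. The depth of the libraries is unknown, and with no replicate values no test or SD could be given. Sequence under the peaks and exon or untranslated regions were not analysed here.

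The 8 genes act at different points of tumour suppression and growth. TGF-beta binds the type II receptor TGFBR2, which recruits a type I receptor, and the SMAD proteins they activate act in the nucleus with SMAD4. CDKN2A encodes the cyclin-dependent kinase inhibitor p16 and, from another reading frame, ARF. RNF43 is a ubiquitin ligase that removes WNT receptors from the cell surface, and GNAS encodes the stimulatory G protein alpha subunit, which activates adenylyl cyclases. GATA6 and MYC are transcription factors, the first of them a marker of the classical tumour subtype, and BRCA2 acts in DNA repair by homologous recombination. PANC-1 cells are known to carry a homozygous deletion of CDKN2A.

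Peaks of the MetDiff list lay in 2 of the 8 members (25.0%), where 21.3% of all protein-coding genes had one. Summits of the MACS2 list lay in the same 2 members, against 9.45% of all protein-coding genes. Both lists marked 8.07% of all protein-coding genes, and 77.3% had a peak in neither. The members' spans ran from 7518 bases for MYC to 87787 bases for TGFBR2. Among the 11714 protein-coding genes with spans in that range, 24.2% held a MetDiff peak and 10.5% a summit. The members' share in the MetDiff list was thus near that of genes in general. The 2 members with summits are too few to set their share apart from the background.

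**Figure D1:**
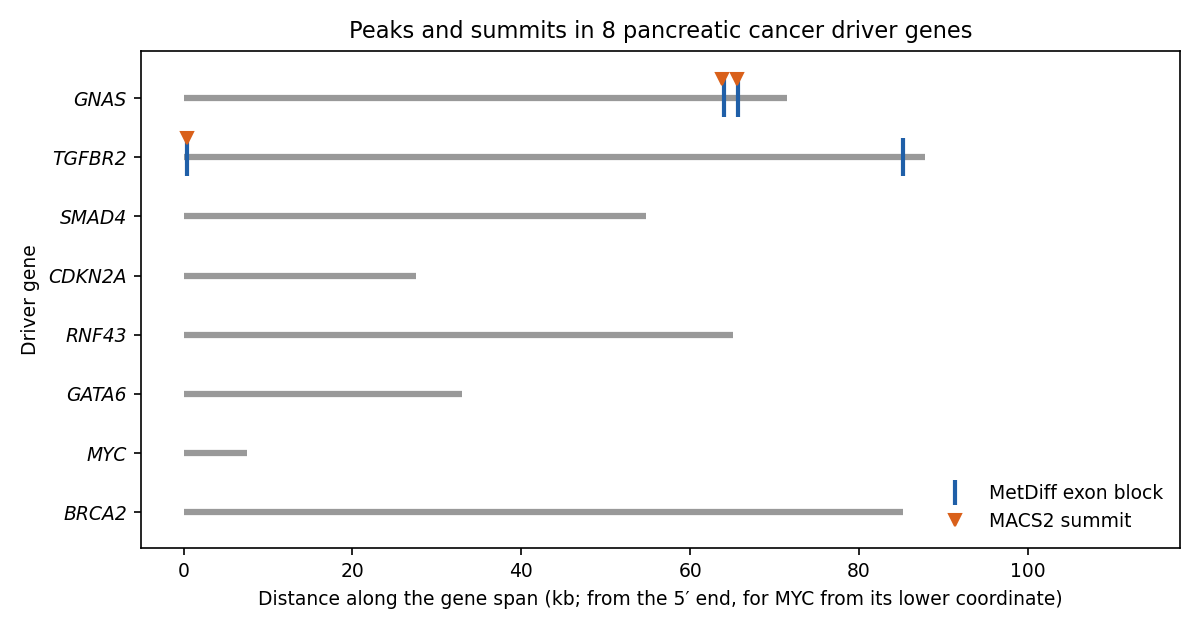
Each grey line is the span of 1 driver gene, drawn by distance in kb from its 5′ end (for MYC, whose strand was not set here, from its lower coordinate). Blue bars mark MetDiff exon blocks and orange triangles MACS2 summits. Of the 8 lines, 6 are empty, while GNAS holds 2 blocks and 2 summits near its 3′ end and TGFBR2 holds 1 block at each end and 1 summit at the 5′ end.

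TGFBR2, the receptor that starts TGF-beta signalling (listed as ENSG00000163513; chromosome 3, 30606356 to 30694142, plus strand), had 2 MetDiff peaks and 1 summit. The first peak lay at chromosome 3, 30606752 to 30606852, a single block of 101 bases with a ratio of 8.16 and an FDR of 1.26e-11. It began 396 bases after the start of the span. Of the 2 transcription starts that the RefSeq promoter table gives for TGFBR2, the nearer lay 151 bases before it. Of 7910 peaks on the strand of their gene, 18.1% began within 500 bases after a listed start and 12.1% within 151 bases. The first TGFBR2 peak was therefore one of a common kind by position.

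The other TGFBR2 peak lay at 30691443 to 30691643, a block of 201 bases with a ratio of 4.0 and an FDR of 1.82e-09. Its centre stood at 97.0% of the span, and 2499 bases of the gene followed it. Both peaks carry the plus strand of TGFBR2. Of 778 genes with 2 peaks on their own strand, 45 (5.78%) had 1 in the first 5% and 1 in the last 5% of the span, as TGFBR2 did. Peaks in the last 10% of a span made up 29.3% of those on the strand of their gene, and peaks in the first 10% made up 16.1%.

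By FDR, both TGFBR2 peaks stood near the head of the list, and by ratio they did not. The FDR of the 5′ peak was reached by 123 of 9585 peaks (1.28%) and that of the 3′ peak by 389 (4.06%). By ratio, 19.0% of all peaks were at or above the 5′ peak and 57.8% at or above the 3′ peak, whose value lay below the list's median of 4.5. Peaks with an FDR as low as that of the 5′ peak had a median ratio of 4.52. A low FDR in this list was thus not tied to a high ratio. Taken by its highest ratio, TGFBR2 was equalled or exceeded by 1455 of the 4266 protein-coding genes with a MetDiff peak (34.1%).

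The TGFBR2 summit lay at position 30606714 with −log10 q of 9.68, 38 bases before the block of the 5′ peak. This value was below the list's median of 13.7, and 69.9% of summits reached it. The 5′ peak and its summit thus ranked differently in the lists, high by MetDiff FDR and low by MACS2 q. No summit lay near the 3′ peak. The 5′ end of TGFBR2 is also covered by LOC105377015, a predicted protein-coding gene on the minus strand (chromosome 3, 30604399 to 30606924). The MetDiff peak there is listed on the plus strand under the same gene ID as the 3′ peak, whereas the summit carries no strand. Without summits that lie in the span of another gene, TGFBR2 had none and GNAS was the only member left in the MACS2 list.

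GNAS (listed as ENSG00000087460; chromosome 20, 58839748 to 58911192, plus strand) had 1 MetDiff peak and 2 summits. The peak ran from 58903720 to 58905411 in 2 blocks, the first of 72 bases (58903720 to 58903791) and the second of 29 bases (58905383 to 58905411). The blocks made 101 bases together and were parted by a gap of 1591 bases. Peaks of 2 blocks made up 27.0% of the list and single blocks 66.6%. The ratio of the GNAS peak was 7.14 and its FDR 8.91e-06. Of all peaks, 24.2% had at least that ratio and 17.4% an FDR at least as low. Among genes with a peak, 41.4% had a highest ratio of at least 7.14. GNAS had a single peak like 44.3% of them, and 21.7% had a median ratio as high.

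GNAS is an imprinted locus with several first exons that splice to a shared 3′ part. The RefSeq promoter table gives 6 starts for it, from the first base of the span to 49432 bases into it. The peak began 63972 bases into the span, at about 90.7% of its length by its centre, and 14540 bases after the last of these starts. All blocks and summits thus lay 3′ of every listed start. GNAS-AS1 and LOC101927932, both of which overlap the GNAS span, do not reach the peak, so GNAS was the only gene there.

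The GNAS summits lay at 58903506, with −log10 q of 19.1, and at 58905296, with 27.5. The values were reached by 30.8% and 16.7% of all summits. Taken by its stronger summit, GNAS was equalled or exceeded by 21.1% of the 1896 genes with a summit, and TGFBR2 by 75.3%. Of the genes with a summit, 64.3% had 1 and 19.0% had 2. GNAS thus had the stronger summits of the 2 members, and both TGFBR2 peaks had the lower FDR. By ratio the GNAS peak (7.14) stood between the 5′ peak (8.16) and the 3′ peak (4.0) of TGFBR2, and the median ratio of TGFBR2, 6.08, was below that of GNAS.

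**Figure D2:**
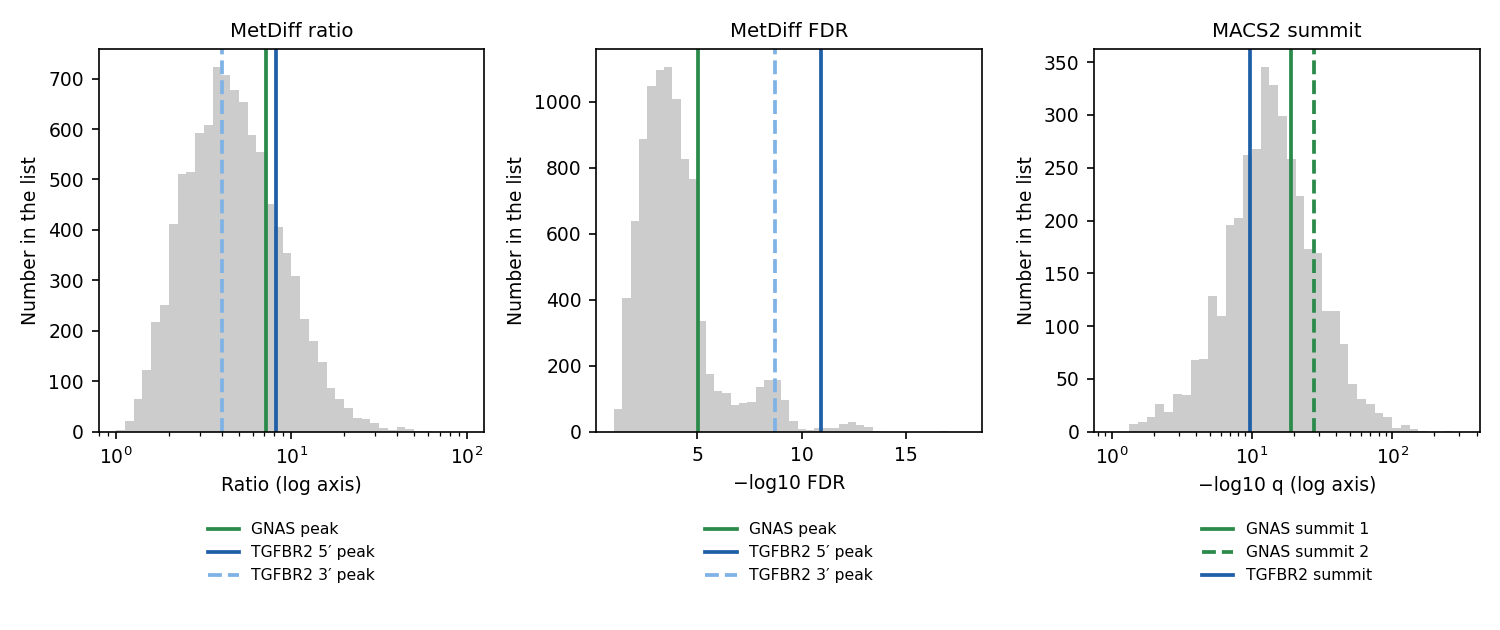
Grey histograms count all 9585 MetDiff peaks by ratio (left, log axis) and by −log10 FDR (middle) and all 3705 MACS2 summits by −log10 q (right, log axis). Lines mark the peaks and summits of GNAS (green) and TGFBR2 (blue): TGFBR2 lies far to the right by FDR but inside the bulk by ratio, and its summit of 9.68 lies left of both GNAS summits (19.1 and 27.5).

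None of the 3 summits lay inside an exon block. The first GNAS summit was 214 bases before the first block and the second 87 bases before the second block, which put it in the gap. Together with the TGFBR2 summit, 38 bases before its block, all 3 stood on the 5′ side of the nearest block. In the whole list 655 of 3705 summits (17.7%) lay inside a block, and 1813 lay outside but within 300 bases of one. Of those, 1597 (88.1%, 95% Wilson interval 86.5 to 89.5, counting error only) were on the 5′ side of the block. The share was 87.3% for blocks on the plus strand and 88.8% on the minus strand, and the median distance was 61.0 bases. The 5′ side was thus the usual one for summits close to a block. The first GNAS summit, at 214 bases, lay farther off than the 63.6% of all summits that were within 150 bases of a block. A further 110 (2.97%) were between 150 and 300 bases from a block, 66 of them on its 5′ side. Only 66.6% of all summits were within 300 bases, so larger distances were common.

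**Figure D3:**
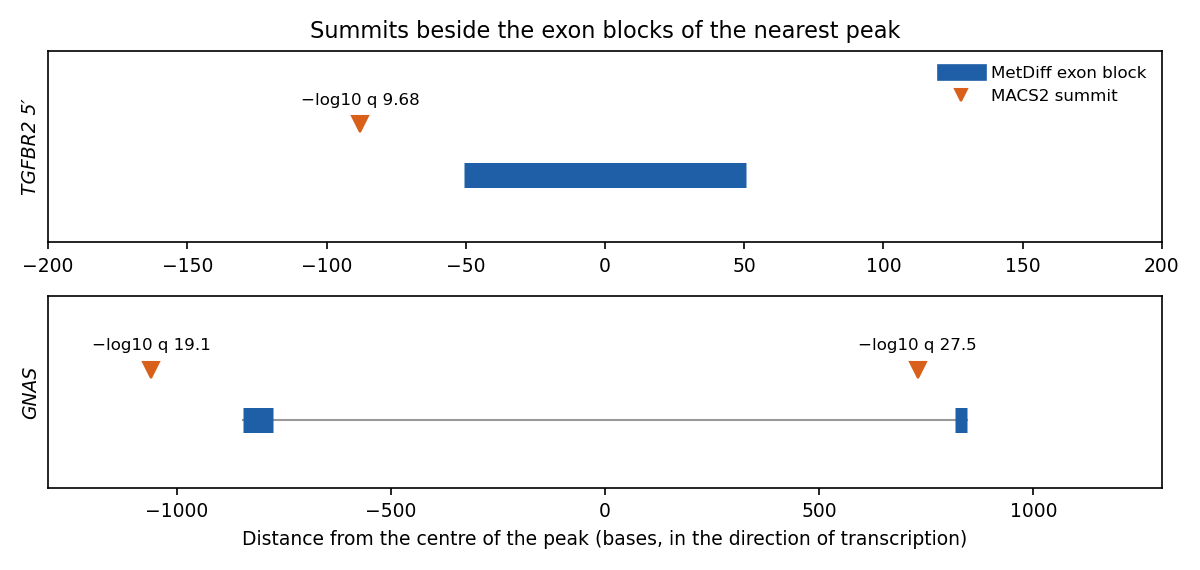
Positions of MACS2 summits (orange triangles, with −log10 q) and MetDiff exon blocks (blue) of the 5′ peak of TGFBR2 (top) and the peak of GNAS (bottom), by distance in bases from the centre of the peak in the direction of transcription; the 2 panels have different scales. Each of the 3 summits stands before its nearest block, by 38 bases in TGFBR2 and by 214 and 87 bases in GNAS.

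The other 6 members had 0 peaks and 0 summits, and widening each span by 1000 bases on both sides added none. The lists hold no expression value, so a low level of a transcript and a lack of binding by the antibody cannot be told apart from them. For CDKN2A the deletion known in PANC-1 has to be kept in mind as well. Whether the gene was present in the cells used was not tested. Distance to the nearest listed peak differed widely among them. Over the 15721 protein-coding genes without a MetDiff peak, the median distance was 180 kb.

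SMAD4, the shared partner of the receptor-activated SMADs (chromosome 18, 51030213 to 51085042), had its nearest MetDiff peak 746267 bases away in CXXC1 and its nearest summit 151124 bases away in no listed gene. The WNT receptor ligase RNF43 (chromosome 17, 58352500 to 58417534, minus strand) had a peak 1088 bases beyond its 3′ end. That peak, with a ratio of 18.8 and an FDR of 2.45e-05, lay on the minus strand inside the span of SUPT4H1, which encodes a transcription elongation factor, and of TSPOAP1-AS1 on the plus strand. It was the closest miss of the 6, since 96.9% of genes without a peak were at least as far from one. RNF43 lay among many peaks, with 12 MetDiff peaks and 5 summits within 1 Mb of its span.

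CDKN2A (chromosome 9, 21967752 to 21995324, minus strand) had no MetDiff peak and no summit within 1 Mb. Its nearest peak was 1082505 bases away in FOCAD. MYC (chromosome 8, 127735434 to 127742951) likewise had none within 1 Mb and its nearest peak 2128446 bases away in CYRIB. Only 7.28% of genes without a peak were at least as far from one as MYC, and 15.1% as far as CDKN2A. GATA6 (chromosome 18, 22169589 to 22202528) was 546845 bases from a peak in SNRPD1, and BRCA2 (chromosome 13, 32315077 to 32400268) was 135630 bases from one in N4BP2L2. For BRCA2 the distance was close to the middle of genes without a peak, with 55.3% at least as far.

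The members' chromosomes differed in how many of their genes were listed. MetDiff peaks were found in 16.7% of the 270 protein-coding genes of chromosome 18, which holds SMAD4 and GATA6, and in 10.1% of the 338 genes of chromosome 13, which holds BRCA2. The share was 18.2% on chromosome 8 (MYC) and 24.9% on chromosome 9 (CDKN2A). On chromosome 17, home of RNF43, 31.2% of genes had a peak. For the members with peaks it was 27.4% on chromosome 20 (GNAS) and 18.6% on chromosome 3 (TGFBR2).

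Partners of the members in their pathways were counted in the same way, beside the same shares of 21.3% and 9.45% of all protein-coding genes. A high ratio among them did not always come with a low FDR. Among 29 genes around TGFBR2 and SMAD4, 9 had a MetDiff peak (31.0%) and 3 a summit (10.3%). Peaks lay in the ligand TGFB1 and in 2 of 9 other receptors, TGFBR1 and ACVR1B. Of the 5 other SMADs that carry the signal, SMAD3 had peaks, with a highest ratio of 13.9. Of 8 inhibitors of the pathway, 4 had peaks, among them the corepressors TGIF1 (ratio 15.1), TGIF2 (9.75) and SKI (8.55). The TGIF2 peak also lay in the span of another gene. The strongest summits of this list were those of TGFB1 (−log10 q 13.4) and TGIF1 (9.47). The type I receptor TGFBR1, the partner of TGFBR2, had a ratio of 5.69 and no summit. Median highest ratio of the 9 genes was 5.69, against 6.18 over all protein-coding genes with a peak.

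Around GNAS, 8 of 24 genes of G protein and cAMP signalling had a MetDiff peak (33.3%) and 6 a summit (25.0%). Of 6 adenylyl cyclases, the enzymes that the GNAS product activates, 4 had peaks, with ratios of 44.0 in ADCY3, 26.4 in ADCY6 and 8.0 in ADCY9. In the same order the FDRs were 0.00186, 0.000112 and 0.000912, and the median over all peaks was 0.00024. The regulatory subunit PRKAR1B of protein kinase A had a ratio of 17.9. The peaks of PRKAR1B and of a further cyclase, ADCY7, also lay in other gene spans. So did some peaks of ADCY3, with 3 of 5 in no other gene, and of ADCY6, with 4 of 7, though not the peaks with the ratios given. The G protein subunits GNAI2 and GNB1 had the strongest summits, with −log10 q of 34.1 and 32.2. None of the 4 phosphodiesterases, which break cAMP down, had a peak. The GNAS ratio of 7.14 lay near the median highest ratio of these 8 genes, 7.5.

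Around RNF43, 12 of 26 genes of WNT receptor turnover held a MetDiff peak (46.2%) and 5 held a summit (19.2%). The related ligase ZNRF3 and the 7 R-spondins and LGR receptors, which restrain both ligases, had none. A lack of peaks held for 77.3% of all protein-coding genes. Peaks lay in 5 of 9 WNT receptors, in all 4 transducers on the list and in 3 of 5 genes of the destruction complex. These groups are small, and a difference between them was not tested. The highest ratios were 15.5 in DVL1, 13.7 in FZD8, 11.5 in the kinase GSK3A and 11 in FZD1. In the same order the FDRs were 0.00891, 0.00174, 8.51e-05 and 0.000372, and the median over all peaks was 0.00024. LRP5 and CTNNB1, which encodes beta-catenin, had the strongest summits (62.4 and 17.3).

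Around CDKN2A, MetDiff peaks were found in 4 of 19 genes of the CDK4/6 and RB axis (21.1%) and a summit in 1 (5.26%). The inhibitor CDKN2C had a ratio of 4.73, the RB relative RBL2 10.2, CDK4 2.53 and cyclin D1 (CCND1) 2.15. The CDK4 peak lay in the span of another gene as well. The summit, in the span of E2F3, also lay in a second gene. CDKN2B, the neighbour and relative of CDKN2A, had none.

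Around MYC, MetDiff peaks were found in 9 of 19 genes (47.4%) and summits in 8 (42.1%). Its partner MAX had none, while 4 of 6 antagonists had peaks, with ratios of 11.3 in MXD4 and 9.82 in MNT. MLXIP, of the same wider family, had a ratio of 14.1 with an FDR of 7.94e-13 but no summit. The pyrimidine synthesis gene CAD had a ratio of 10.5 with an FDR of 0.0107. All 5 listed MYC targets had a summit, the strongest in LDHA (32.2) and NPM1 (28.3). Only 3 of the 5 had a MetDiff peak, since NCL and NPM1 had none.

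Around BRCA2, 3 of 22 genes of homologous recombination had a MetDiff peak (13.6%) and 1 a summit (4.55%). RAD52 had a ratio of 7.17 and the checkpoint kinase CHEK1 7.14, and the summit lay in BRCA1 (13). Of 14 factors of the classical subtype listed around GATA6, SOX9 alone had peaks (ratio 7.65, −log10 q 4.82). Of 11 basal-like markers, only the integrin ITGA3 had peaks (ratio 9.78, −log10 q 15.6). The MetDiff shares of the 2 lists, 7.14% and 9.09%, lay below the 21.3% of all protein-coding genes. Their summit shares were the same, close to the 9.45% of all protein-coding genes. Each share rests on 1 gene, so lists this small do not stand apart.

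Other genes recurrently altered in pancreatic cancer had MetDiff peaks in 12 of 25 (48.0%) and summits in 6 (24.0%). The chromatin remodelling subunit ARID1A had 8 peaks and a highest ratio of 15, and the histone methyltransferase KMT2D had 11 peaks and a ratio of 11.9. Neither of these genes had a summit. SMARCA4 reached 9.52 and the kinase STK11 9.20. Receptor ERBB2 and STK11 had the strongest summits (25.7 and 25.0). These lists were chosen with earlier results known and were not tested as sets.

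**Figure D4:**
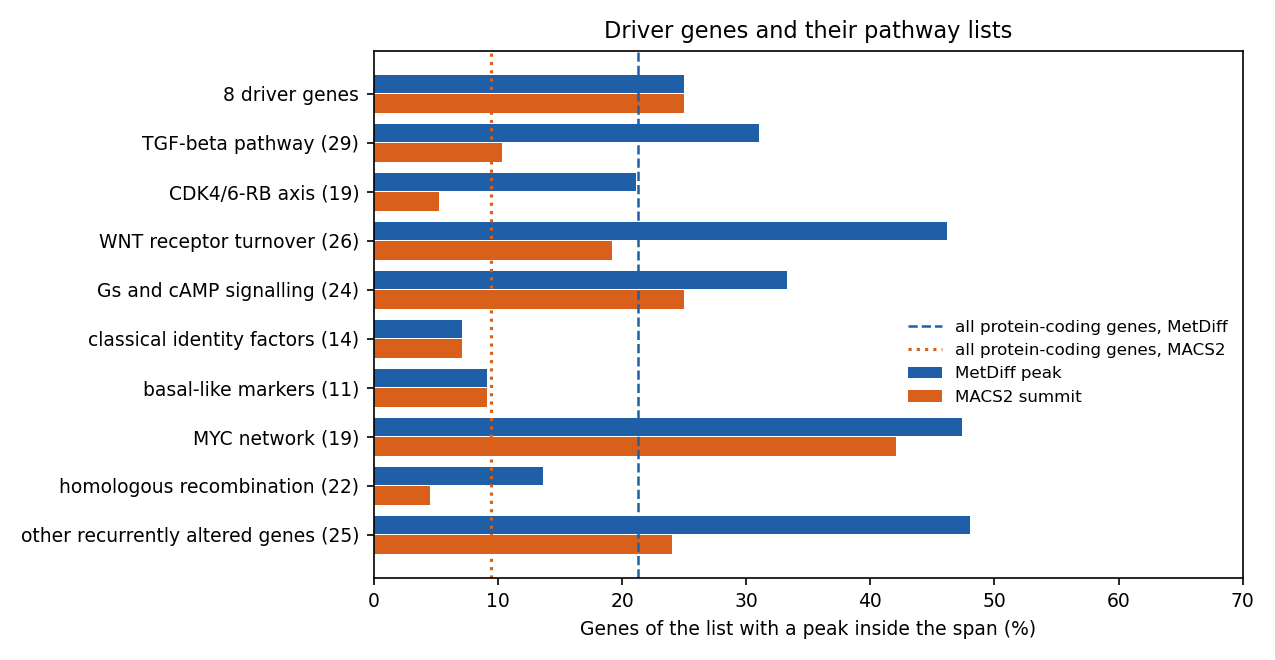
Share of genes (%) with a MetDiff peak (blue bars) or a MACS2 summit (orange bars) inside the span, for the 8 driver genes and 9 lists of related genes, with the number of genes in brackets. Dashed and dotted lines give the shares of all protein-coding genes (21.3% and 9.45%); the driver genes stand at 25.0% in both, the MYC network at 47.4% and 42.1%, and the homologous recombination list below both lines.

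As a look at the labelled cell type, 3 of 8 ductal epithelial markers had a MetDiff peak, namely the keratins KRT8, KRT18 and KRT19. Of the 8, 2 had a summit, KRT8 and KRT18. The shares of all protein-coding genes were 21.3% and 9.45%. Only 2 of 4 KRT8 peaks and 1 of 3 KRT18 peaks lay in no other gene span, and the KRT18 summit lay in another gene as well. Markers of acinar cells (0 of 6), islet cells (0 of 4), immune cells (0 of 5) and endothelium (0 of 3) had no peak in either list, as held for 77.3% of all protein-coding genes, so groups this small do not stand apart. Of 6 stellate cell and fibroblast markers, only the collagen COL1A1 had peaks (ratio 3.21), and it also had 1 summit. Peak lists hold no expression level, so the absence of a marker here is no measure of its RNA.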

How the data were processed

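For immunoprecipitated and input RNA of PANC-1 cells, the authors gave peak lists for the series, with none given per library. STAR 2.7.1, MACS2 2.2.5 and the GRCh38 build are named, with no role or order, per the submitters' processing notes. The sources used here do not state which libraries entered or whether they were pooled. The deposited MetDiff list holds a p-value, the log10 of an FDR and a ratio. The deposited MACS2 list holds a −log10 value, taken for −log10 of a q-value since the lowest entry, 1.35, is just above that of 0.05. Its peak numbers run to 3456 without a gap.

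Exon blocks were built from the block columns. Coordinates are counted from 1. Gene spans came from the RefSeq table (GRCh38), strands and starts from its promoter table, and the Ensembl IDs are those of the list, which the table does not pair with symbols. Python 3.11.15 and pandas 2.3.3 were used. No statistical test was run, since no replicate values were available. The text names all 8 members, genes at their peaks and, of each list, up to 4 by ratio and 2 by −log10 q. Other genes named were chosen after their values were seen. Members and lists were chosen with earlier results of these data known. Knockdown was not compared with control. Some items of the lists are not reported here.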

Additional observations from a re-analysis of the deposited data

How the results depend on the processing

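GNAS and TGFBR2 remained the 2 members with a MetDiff peak when any block overlapping the span counted, with peaks of 1 gene alone, at FDR under 0.01, at a ratio of at least 2, with spans widened by 1000 bases and with the peak on the strand of the gene (listed IDs could not be matched). The 6 members without peaks stayed the same with wider spans. Stricter thresholds in both lists could not give these 6 a peak. They could only have added GNAS or TGFBR2 to them, and did not. Members with a summit fell from 2 to 1 when summits in several genes were left out, by construction, since the TGFBR2 summit also lies in LOC105377015. The number of member summits at a block was 0 inside, 2 within 150 bases and 3 within 300 bases; in the whole list 63.6% lay within 150 bases. The share of genes at or above GNAS was 41.4% by highest ratio and 21.7% by median ratio. Of all 9585 peaks, counted one by one, 24.2% were at or above its ratio. For TGFBR2 the shares of genes were 34.1% and 30.8%, and the share of peaks was 19.0%. No paired analysis was possible because the lists hold no value per library, and no replicate could be left out for the same reason. Depth is unknown, so a missing peak cannot be set against a detection limit.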

Other observations

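The empty stretch around CDKN2A was wider than the gene. Within 1 Mb of it lay 22 other protein-coding genes. Most of them were short genes of the interferon cluster, and MTAP and CDKN2B were among the rest. None of them had a summit, and 1 had a MetDiff peak, FOCAD, whose peak (ratio 17.6) lay beyond that distance. Over all protein-coding genes the shares were 9.45% with a summit and 21.3% with a MetDiff peak. Those genes were not matched in span length to a neighbourhood made up mostly of 1 gene cluster, so the shares are no like comparison. The stretch around MYC was wider, with its nearest peak 2128446 bases away against 1082505 for CDKN2A. This neighbourhood was chosen after the values were seen.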
